A study of Schizosaccharomyces pombe with 4 samples.

Results

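The wild-type list of RNA polymerase II intervals held 563 intervals that had no interval of the abp1Δ list overlapping them or within 250 bp, and these distant intervals are described here. They are 563 of the 3242 wild-type intervals, or 17.4% (95% Wilson interval 16.1 to 18.7%, which covers counting error only and takes neighbouring pieces as independent, which they are not). They were chosen by the presence of a wild-type interval and the absence of an abp1Δ interval, so their number, their score and the lack of abp1Δ coverage beside them are a description and not a finding. The reverse choice gave 701 of 2851 abp1Δ intervals, or 24.6%.

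The study compared 2 genotypes of the fission yeast Schizosaccharomyces pombe: an ABP1d strain, in which the gene for Abp1 is deleted, and wild type. Both were grown exponentially in YES, a rich medium, and fixed with formaldehyde, and chromatin was precipitated with an antibody against the Ser5-phosphorylated form of RNA polymerase II (Ser5P). Each genotype has 1 ChIP sample with 1 interval list and 1 input sample, which was not used here. There is thus no replicate, no difference could be set against replicate spread, and no p-value is given. The label of the mutant ChIP sample also has the spelling APB1d, and its genotype label reads ABP1d. The labels name no strain background, clone or number of isolates, and the deleted locus SPBC1105.04c and its relatives cbh1 and cbh2 had no interval in either list, so they do not test the genotype labels.

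Abp1 is one of the fission yeast homologs of human CENP-B, a DNA-binding protein derived from a transposase, and it is known for binding Tf2 retrotransposons and silencing them. Ser5 phosphorylation, on the C-terminal repeats of the largest polymerase subunit, is added as the enzyme initiates and leaves the promoter, and it declines as elongation proceeds. Intervals of this kind mark places that hold much of this polymerase.

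Each interval carries a whole-number score given by the authors, whose unit no source used here names. The lowest score was 200 in both lists. A stretch without an interval may thus still hold polymerase below that level, and read depth and scaling of the lists are unknown. Absence from the abp1Δ list and lower polymerase in the mutant cannot be told apart here from a difference in depth or scaling between the lists.

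The sequences under the most covered distant stretches show the kinds of place involved. Coordinates are 1-based on assembly ASM294v3, sequences are read from its RefSeq genome in the direction of transcription, and interval edges are good to about 1 base. Most of the covered bases lay in coding sequence, as in the single-copy genes bfr1 (chrIII:713209-713334, coding bases 674 to 799) and hxk2 (chrI:2666175-2666449, coding bases 360 to 634). Both are shown for their highest-scoring distant interval. The gene ecl2 (chrII:962261-962515) is shown as the whole coding sequence because 1 interval spanned it. Only 255 of the 998 distant bases in ecl2, or 25.6%, were coding. A cluster of near-identical transporter genes is shown by 300 bases of its highest-scoring interval, here from SPBPB10D8.04c (chrII:92331-92630, coding bases 234 to 533), which recur without a mismatch in all 4 genes of the cluster. The gene pfl3 is shown by 3 of its separate pieces (coding bases 1489 to 1517, 1679 to 1727 and 2096 to 2148), because these are copies of a tandem repeat. Capitals mark the 24 bases shared by all 8 pfl3 pieces of at least 20 bp.
bfr1, 126 bp, score 270: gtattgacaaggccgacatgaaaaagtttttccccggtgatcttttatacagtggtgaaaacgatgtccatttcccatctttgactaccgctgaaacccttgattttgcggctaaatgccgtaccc
hxk2, 275 bp, score 309: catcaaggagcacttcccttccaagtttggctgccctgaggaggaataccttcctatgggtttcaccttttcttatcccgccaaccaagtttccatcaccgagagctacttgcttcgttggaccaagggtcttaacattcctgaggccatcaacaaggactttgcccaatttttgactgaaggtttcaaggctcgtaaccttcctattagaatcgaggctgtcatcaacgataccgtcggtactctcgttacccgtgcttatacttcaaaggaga
ecl2, 255 bp of coding sequence, score 351: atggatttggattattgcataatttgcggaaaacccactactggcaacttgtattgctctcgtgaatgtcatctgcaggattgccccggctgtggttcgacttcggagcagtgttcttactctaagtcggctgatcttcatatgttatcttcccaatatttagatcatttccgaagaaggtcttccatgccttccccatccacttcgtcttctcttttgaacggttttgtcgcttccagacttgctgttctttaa
SPBPB10D8.04c, first 300 bp of 568, score 440: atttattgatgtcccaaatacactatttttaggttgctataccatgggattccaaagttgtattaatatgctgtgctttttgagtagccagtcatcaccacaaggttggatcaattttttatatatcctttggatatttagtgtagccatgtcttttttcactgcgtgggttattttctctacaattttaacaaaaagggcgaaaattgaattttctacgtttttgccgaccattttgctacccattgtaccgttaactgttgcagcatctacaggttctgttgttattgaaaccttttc
pfl3 piece 2, 29 bp, score 308: gctCATGACACTGTTTCAGGAACGGTTga
pfl3 piece 5, 49 bp, score 356: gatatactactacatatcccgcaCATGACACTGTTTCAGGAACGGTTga
pfl3 piece 14, 53 bp, score 373: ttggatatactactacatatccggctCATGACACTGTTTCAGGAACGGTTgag

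The distant intervals were mostly narrow fragments just above the lowest score, with a small number of long stretches that held most of their bases. They covered 12183 bp, which is 5.36% of the 227413 bp of the wild-type list. Their median width was 3 bp and 170 of them were 1 bp wide, while the widest, in ecl2, was 586 bp. The other 2679 wild-type intervals had a median width of 4 bp and a maximum of 4996 bp. Only 23 distant intervals were 100 bp or wider, and these held 6414 bp, or 52.6% of the distant bases, against 86.7% of the bases of the other wild-type intervals. The authors' score had a median of 205 in the distant intervals, with quartiles of 202 and 216 and a maximum of 440, and a median of 207 and a maximum of 2503 in the other wild-type intervals. A score under 210 was given to 370 of the 563 distant intervals (65.7%) and to 57.3% of the others.

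Pieces up to 100 bp apart were merged into regions, which gave 110 distant regions with a median span of 49.5 bp. A single piece made up 34 of them, and 41 held under 20 covered bp. The 27 regions with at least 100 covered bp held 10015 bp, or 82.2% of the total, and 13 regions held 64.2%. Distance was not concentrated at the limit of the rule: 56 of the 110 regions, with 75.6% of the distant bases, lay more than 10 kb from the nearest abp1Δ interval, and 75 lay more than 1 kb away. Counted as intervals, 419 of 563 lay more than 1 kb away and the median gap was 19574 bp. By chromosome, I held 4915 distant bp, II 5621 bp and III 1647 bp, which is 40.3%, 46.1% and 13.5%. The other wild-type intervals had 51.3% of their bases on I, 31.2% on II and 17.5% on III. The SPBPB10D8 cluster on chromosome II held 3044 bp, or 25% of all distant bases.

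**Figure D1:**
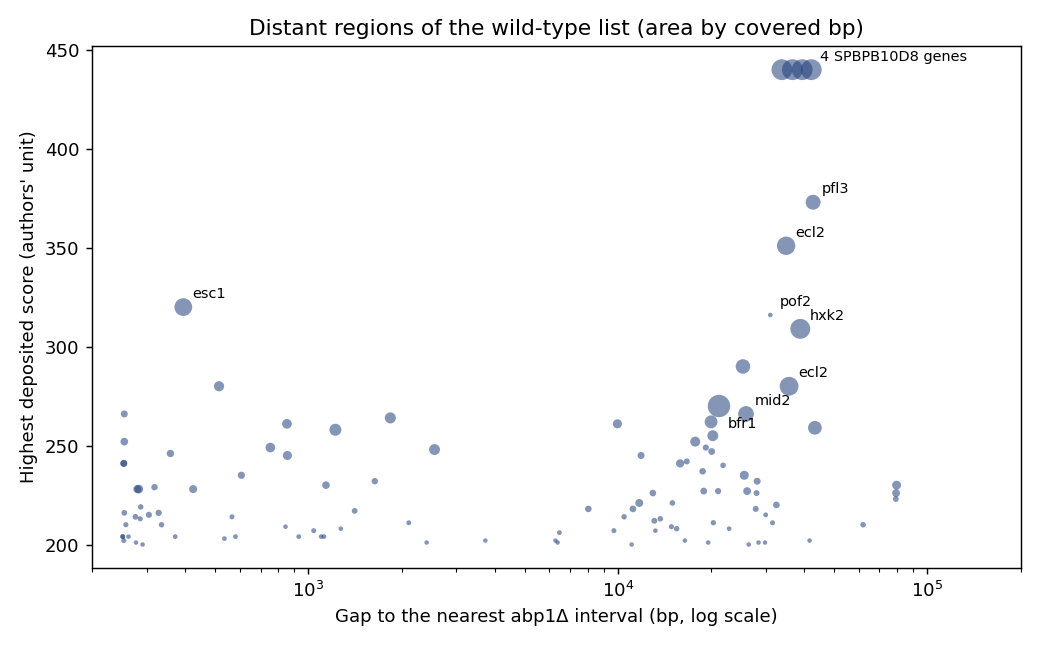
Highest deposited score of each of the 110 distant regions (authors' unit, vertical axis) against the gap in bp to the nearest abp1Δ interval (log scale, horizontal axis), with the area of each point growing with its covered bp. The 4 SPBPB10D8 regions sit at a score of 440, pfl3 at 373 and ecl2 at 351, all more than 10 kb from an abp1Δ interval, while most regions lie under 250.

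At the limit itself the values were small. The 5 distant intervals nearest to an abp1Δ interval lay 251 to 253 bp from it, were 1 or 2 bp wide and had scores of 200 to 204. They fell in the hexose transporter gene ght8, in the mirror-image aldo-keto reductase genes SPAC977.14c and SPAC750.01, and at 2 places outside protein-coding genes. The 5 intervals just on the other side lay 247 to 250 bp away, were 1 to 3 bp wide and had scores of 200 to 204.

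The distant intervals fell in 63 of the 5113 protein-coding genes, or 1.23%. Wild-type intervals of any kind fell in 367 genes (7.18%) and abp1Δ intervals in 364 (7.12%), so 17.2% of the genes with a wild-type interval held a distant one, a share close to that of the intervals. Of the 63 genes, 45 had no abp1Δ interval anywhere between gene start and gene end, and 18 had one. In 44 of those 45 every covered wild-type base was a distant one. The exception was the homocysteine synthase gene met17, with 5 distant bp of 114 wild-type bp. Over all genes with a wild-type interval, 48 of 367 (13.1%) had no abp1Δ interval in the gene, and since the rule used that absence nothing is read from it. Coverage was thin in most of the 45: the median was 3.96% of the gene, and the highest was 89.5%, in the 219 bp gene SPAC806.11. At least 100 distant bp were found in 20 genes, 16 of them without abp1Δ coverage, while 24 genes had 20 to 99 distant bp and 19 had under 20. The intervals carry no strand, so where genes overlap the same intervals count for both. Long non-coding RNA genes held 6908 distant bp when added gene by gene. All distant bases of mid2 (531), pfl3 (373), sul1 (215) and eng1 (197) also lay inside such genes. They cannot be assigned to 1 of the overlapping genes.

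Of the lists of protein-coding genes, membrane transport held the most distant bases, 4755, or 2472 with the 4 identical SPBPB10D8 copies counted once. Of 190 genes annotated as a transporter or permease, 14 had an abp1Δ interval and 19 a wild-type one, and 10 held a distant interval, which is 5.26% of the list beside 1.23% of all genes, and 52.6% of its 19 wild-type genes beside 17.2%. With the copies counted once, as chosen after seeing the data, 7 of 16 wild-type transporter genes held one, or 43.8%. The ABC transporter gene bfr1, whose product exports brefeldin A, had no covered base in abp1Δ and 1286 in wild type, or 21.0% of its 6117 bp (chrIII:709302-715418, minus strand). These lay in 59 pieces with scores of up to 270, at least 18783 bp from any abp1Δ interval. All but 4 of the 1286 bases were coding, and their median lay 2220.5 bp from the gene start, past a long 5′ untranslated region of 1411 bp. The sulfate transporter gene sul1 had no covered base in abp1Δ and 215 in wild type, in the first 677 bases from its start codon. The biotin transporter gene vht1 had 48 bp in abp1Δ cells and 666 in wild type, and 114 of these were distant. The gene mfs3, annotated as a spermidine family transporter, had 704 bp in the abp1Δ list and 1416 in the wild-type list, 37 of them distant, and mfs2 had none in abp1Δ and 48 in wild type. In the drug efflux list, bfr1, mfs2 and mfs3 were the 3 of 12 genes with any wild-type interval, and 1 of the 12, mfs3, had an abp1Δ interval.

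The 4 transporter genes of the SPBPB10D8 cluster were alike to the base under the intervals, and they count as 1 observation. Each of them, from SPBPB10D8.04c to SPBPB10D8.07c, had no covered base in abp1Δ and 761 in wild type. In each copy these came as 20 pieces over 953 bp, from coding base 133 to 1085, with the same piece edges and the same scores up to 440. The 953 bp under them had 0 mismatches between the copies, as in the 300 bases printed above, so reads from any of them would align equally to all. Their score cannot be assigned to 1 copy. Leaving out genes in which 10% or more of the 50-mers occur more than once in the genome, this cluster and pfl3 among them, left 456 distant intervals with 8596 bp. Of the 63 genes, 54 passed that limit. Bases inside a repeated 50-mer made up 28.9% of the distant bases and 10.3% of the bases of the other wild-type intervals.

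The pieces in pfl3 also lay in a repeat. This gene encodes a glycoprotein of the DIPSY family, a group of cell surface proteins that includes flocculins. It had no covered base in abp1Δ and 373 in wild type, in 16 pieces between coding bases 1485 and 2250. The 8 longer pieces were the same 24-base core with different flanks. Pieces 5, 7 and 9 had one sequence of 49 bp and the same score of 356, and pieces 2 and 12 had one sequence of 29 bp and the same score of 308. Bases inside repeated 50-mers made up 97.8 to 100% of each piece, so their scores carry the same doubt as those of the transporter cluster. The related gene pfl2 had 4051 bp in the abp1Δ list and 4332 in the wild-type list, and only 27 bp at its annotated start were distant.

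Single-copy genes with long distant stretches had varied roles. The gene ecl2, which encodes a small protein of the Ecl family known for extending chronological lifespan, had no covered base in abp1Δ and 998 in wild type, or 66.1% of the gene (chrII:961007-962515, minus strand). It had 2 wide pieces, 1 of 523 bp that spanned the whole coding sequence printed above and began 139 bp before the annotated start, and 1 of 586 bp in the 3′ untranslated region, with scores of 351 and 280. Its relatives ecl1 and ecl3 had no interval in either list. The hexokinase gene hxk2, whose product phosphorylates glucose at the entry to glycolysis, had no covered base in abp1Δ and 692 in wild type, between coding bases 242 and 1201, with a score of up to 309. Among 18 glycolysis and fermentation genes, 13 had an interval in abp1Δ and 13 in wild type, and hxk2 and pfk1 held distant intervals, which is 15.4% of the 13 beside 17.2% of all genes with a wild-type interval. The phosphofructokinase gene pfk1 had 601 bp in the abp1Δ list and 178 in the wild-type list, and 13 of the wild-type bases, past the end of the abp1Δ stretch, were distant.

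Other genes with more than 300 distant bp were esc1, mid2 and cbm1. The transcription factor gene esc1, which acts in sexual differentiation, had 22 covered bp in abp1Δ, at 1172 to 1200 bp from its start. In wild type it had 1148, and 765 of these were distant. Its distant bases lay on both sides of the abp1Δ interval, 220 before it and 545 after it, and the widest piece was 422 bp with a score of 320. The septin ring gene mid2 had no covered base in abp1Δ and 531 in wild type, from 304 to 1193 bp past the start codon. The gene cbm1, annotated with a cellulose-binding domain, had none in abp1Δ and 353 in wild type. SPAC806.11, an uncharacterized gene of 219 bp, had none in abp1Δ and 196 in wild type, and its region lies on the non-coding RNA gene prl3, which had 311 distant bp. The meiotic recombination gene rec15 and SPBC1711.15c overlap on opposite strands, share the same 148 wild-type bp and had none in abp1Δ. SPAC1071.09c and the ribosomal protein gene rpp203 overlap likewise, with none in abp1Δ and with 115 and 56 bp in wild type.

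**Figure D2:**
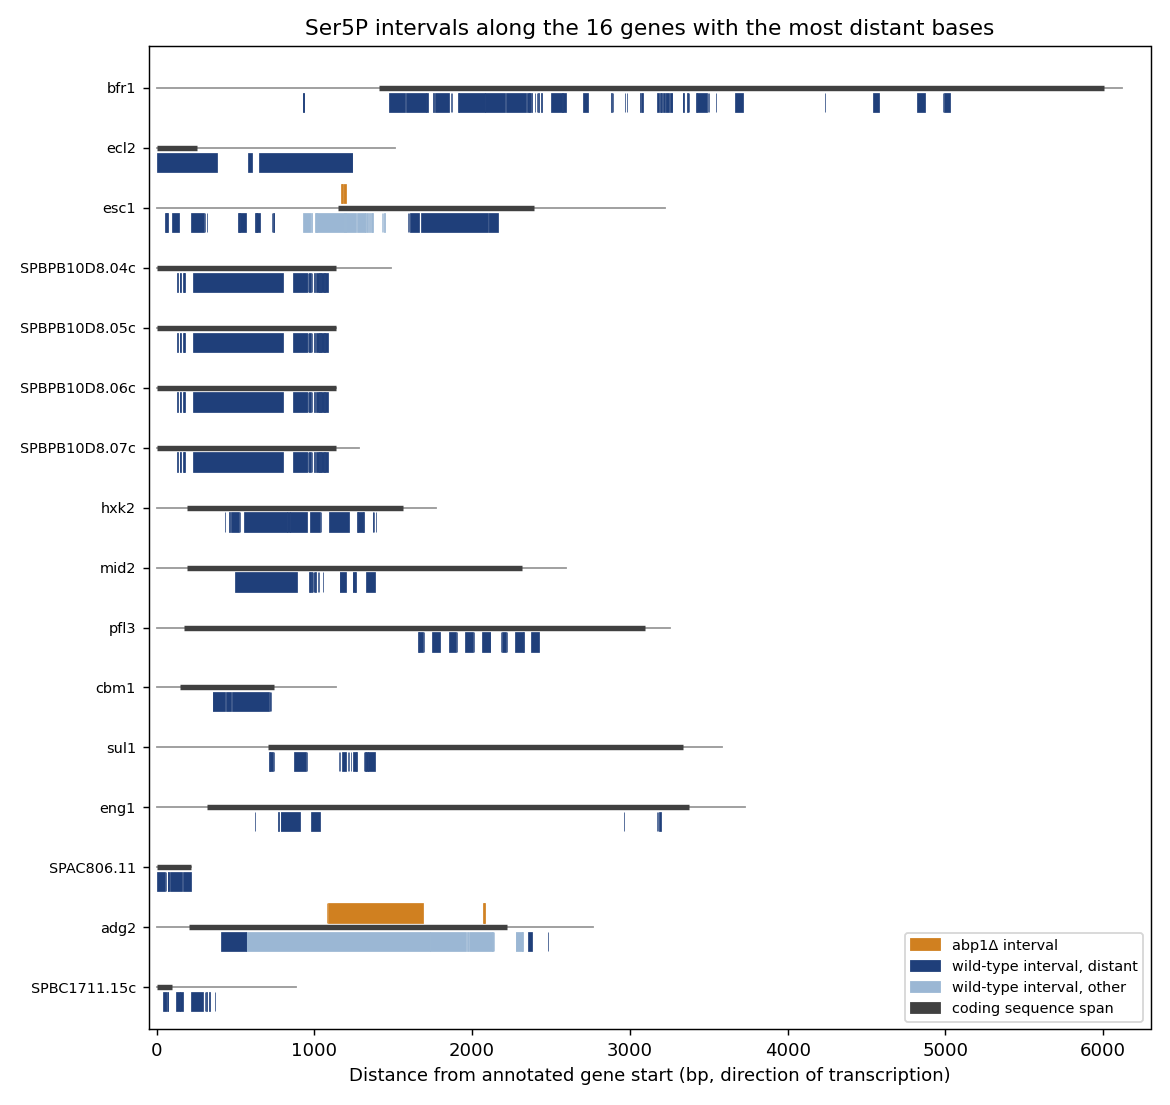
The 16 protein-coding genes with the most distant bases, drawn from annotated gene start to end in bp in the direction of transcription (grey line, with the span from start to stop codon thick). Boxes above each line are abp1Δ intervals and boxes below are wild-type intervals, dark where distant. Only esc1 and adg2 of the 16 carry an abp1Δ box, and the 4 SPBPB10D8 genes show the same pattern.

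Of 30 cell wall and surface genes, 11 had an abp1Δ and 14 a wild-type interval. Of these 14, 6 held a distant one, which is 42.9% beside 17.2% of all genes with a wild-type interval. The 6 were pfl3, eng1, adg2, pfl2, agn1 and the glucan synthase gene bgs4. An overlap of 1 bp sufficed for this count. In it pfl2 held 27 distant bp, agn1 21 and bgs4 6, the last at a score of 204. The glucanase gene eng1, whose product digests the primary septum, had no covered base in abp1Δ and 197 in wild type, and agn1, whose product digests the surrounding cell wall, had none in abp1Δ and 21 in wild type. Among 15 sulfur and methionine genes, 3 had an abp1Δ and 5 a wild-type interval. Of these 5, sul1 and the sulfite reductase gene sir1 held distant intervals (40% beside 17.2%). The gene sir1 had none in abp1Δ and 90 bp in wild type, near its end. Scores reached 230 in sul1 and 241 in sir1, so neither kept a distant base with only wild-type scores of 250 or more. Of 137 ribosomal protein genes, 109 had an abp1Δ and 113 a wild-type interval, and only 6 held a distant one, which is 5.31% of the 113 beside 17.2% of all genes with a wild-type interval. These were rps2801 with 67 bp, rpp203 with 56, rpl3002 with 44, rps1801 with 32, rps1702 with 21 and rpl3702 with 16, and all 6 had no interval in abp1Δ. The zinc finger gene zfs1 of the sexual differentiation list had none in abp1Δ and 19 bp in wild type. Of 8 hexose transporter genes, 5 had an abp1Δ and 5 a wild-type interval, and 1 of these 5, ght8, held a distant one (20% beside 17.2%), with 1706 bp in the abp1Δ list and 2009 in the wild-type list, 11 of the wild-type ones being distant. Of 11 translation factor genes 10 had a wild-type interval, and 1 of the 10, tif11, held a distant one (10%). This gene, for initiation factor 1A, had none in abp1Δ and 79 bp in wild type. Only 2 of the 79 bp were coding, and 77 lay inside the overlapping long non-coding RNA gene SPNCRNA.6045. Of 15 chaperone genes 8 had a wild-type interval, and 1 of the 8, the mitochondrial Hsp70 gene ssc1, held a distant one (12.5%), with 741 bp in the abp1Δ list and 452 in the wild-type list, 39 of the wild-type ones being distant.

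No distant interval fell on the 10 histone genes, 18 stress response genes, 14 iron and copper genes, 7 phosphate genes, 14 nitrogen and vacuole genes, 11 RNA polymerase II subunit genes, 13 Tf2 elements, 171 tRNA genes, 47 rRNA genes or 6 snRNA genes. Of these lists the histone genes had intervals in 9 of 10 genes in abp1Δ and in 9 in wild type, so their wild-type intervals lay within 250 bp of an abp1Δ one. Few genes of the other lists could hold a distant interval, since a wild-type interval was found in 3 stress response genes, 4 iron and copper genes, 1 phosphate gene, 1 nitrogen and vacuole gene and 4 snRNA genes. The RNA polymerase II subunit genes, the tRNA genes and the rRNA genes had no interval in either list. The Tf2 elements had intervals in 2 of 13 elements in abp1Δ, with 1985 bp, and in none in wild type.

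**Figure D3:**
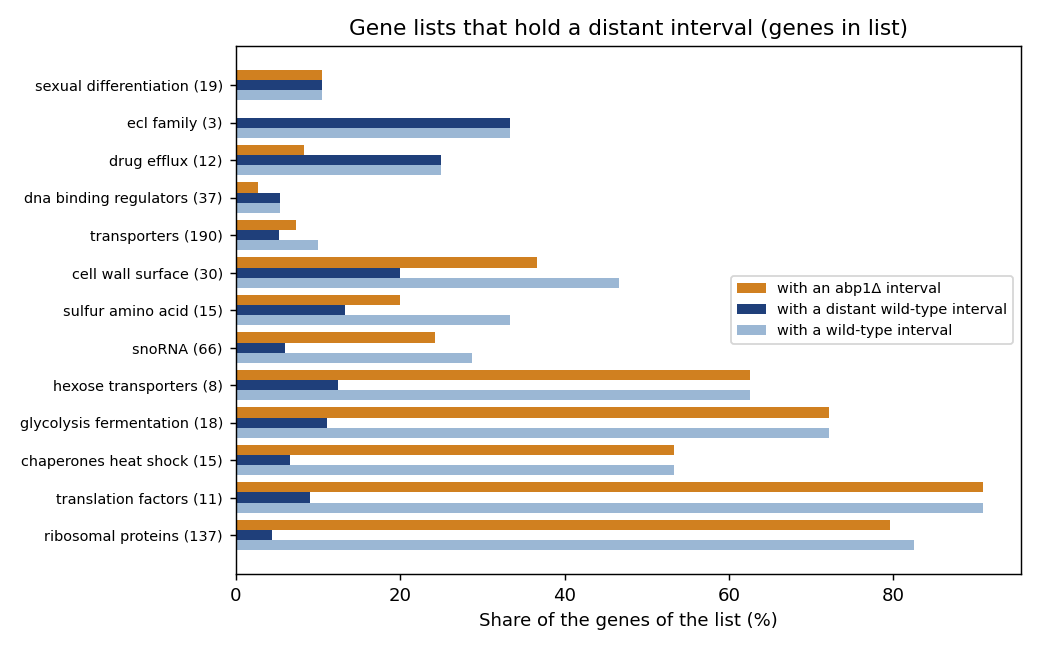
Share of the genes of each list (%, horizontal axis) with an abp1Δ interval, with a distant wild-type interval and with any wild-type interval, for the lists with at least 1 distant interval (number of genes in parentheses). In ribosomal protein genes the distant share is 4.38% against 25% in the drug efflux list, and lists with a larger share of distant ones among their wild-type genes stand higher.

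Along genes, the distant bases lay mostly in coding sequence and toward the middle. Coding sequence took 76.2% of them, untranslated regions 11.2% and sequence outside protein-coding genes 12.6%, and no distant base lay in an intron. The other wild-type intervals had 71.5% in coding sequence, 16.8% in untranslated regions, 1.41% in introns and 10.3% outside, and the genome as a whole has 56.9% coding sequence. Genes were divided into 3 equal parts and bases counted by part. The first part of a gene held 27% of the distant bases, the middle part 43.6% and the last part 16.4%, with 13% in no gene. For the other wild-type intervals the shares were 20.1%, 38.7%, 29.6% and 11.6%. On a scale from 0 at the gene start to 1 at its end, the median base lay at 0.46 in the distant set and at 0.55 in the others. Only 6.90% of the distant bases in genes lay within 250 bp of the gene start, against 6.25% in the others, and the median distance from the start was 813 bp for the distant bases and 861 bp for the others.

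These positions depend on how they are counted. With each interval counted once, the shares were 21.7% (95% Wilson interval 18.5 to 25.3%) in the first part, 38.0% (34.1 to 42.1%) in the middle and 22.9% (19.6 to 26.6%) in the last for the distant intervals, and 21.4%, 33.6% and 32.6% for the others. The Wilson intervals again cover counting error only. They take neighbouring pieces and the identical SPBPB10D8 copies as independent, which they are not, so they are too narrow. With 1 value per gene, the mean position of the distant intervals was in the first part in 15 of 59 genes, in the middle in 28 and in the last in 16, with a median of 0.49. The other wild-type intervals gave 14, 197 and 84 of 295 genes and a median of 0.58. By gene, the middle part thus took 47.5% of the 59 against 66.8% of the 295, the opposite order to the base counts. Many of the 59 genes rest on a few bases each, and bfr1, ecl2 and the 4 transporter copies carry much of the base count. In genes with abp1Δ coverage the rule itself also shapes position, because a distant base must lie more than 250 bp from the covered part. In the genes without it, where abp1Δ intervals outside the gene can still limit position, 29.6% of distant bases lay in the first part, 48.7% in the middle and 19.3% in the last.

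**Figure D4:**
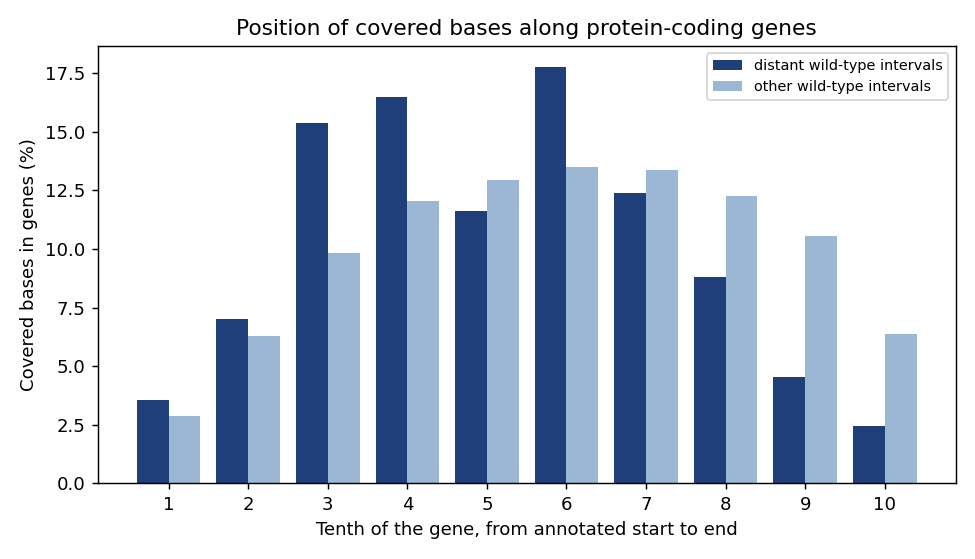
Share of the covered bases in protein-coding genes (%, vertical axis) in 10 equal bins of the gene from annotated start to end, for the distant wild-type intervals and the other wild-type intervals. The distant bases are at 3.54% in the first bin, 15.4% in the third and 2.45% in the last, and the other wild-type bases at 2.87%, 9.83% and 6.36%.

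The 4 genes given next were chosen after their values were seen. The fatty acid synthase gene fas1 had none in abp1Δ and 70 bp in wild type, in 8 pieces with scores of up to 226. The gene hem1, for the first enzyme of heme synthesis, had none in abp1Δ and 60 bp in wild type. The threonine aldolase gene gly1 had none in abp1Δ and 53 bp in wild type, and gfa1, for the first enzyme of the pathway to chitin precursors, had none in abp1Δ and 45 bp in wild type. The highest score in these 4 genes was 220 to 232. At the lower end, knh1 held 1 distant bp, leu3 held 2, and SPAC1805.10, ubi2, pof2 and SPAC56F8.15 held 3 each. In ubi2 and SPAC1805.10, which overlap, these are the same 3 bases.

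In the 18 genes that had both distant intervals and abp1Δ coverage, the distant bases flanked the abp1Δ stretch. They lay wholly before its first base in 8 genes, wholly after its last base in 7 and on both sides in 3, with 766 bp before it, 824 after it and 0 between. The rule shapes this placement, because a base between abp1Δ intervals counts as distant only where these lie far apart. Wild type had more covered bp than abp1Δ in 14 of the 18, and abp1Δ had more in 4, cdc22, ssc1, pfk1 and bgs4. The rule shapes this count too, because it asks for wild-type intervals far from abp1Δ ones, so nothing is read from it. The cell separation gene adg2 had 621 bp in the abp1Δ list and 1773 in the wild-type list, and 156 of its 182 distant bp lay before the abp1Δ stretch. The chitinase gene cts2 had 192 bp in the abp1Δ list and 242 in the wild-type list, with all 142 distant bp before the abp1Δ stretch. The ribonucleotide reductase gene cdc22 had 162 bp in the abp1Δ list and 138 in the wild-type list, with 66 distant bp before the abp1Δ stretch.

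Of the 110 regions, 19 met no protein-coding gene, and they held 1138 bp. Non-coding RNA genes were annotated at 12 of them, and 10 held at least 20 bp. The most covered lay at the snoRNA gene sno12 on chromosome III (chrIII:583421-583774), with none in abp1Δ and 124 bp in wild type inside the gene and 269 bp in the region. Of 66 snoRNA genes, 16 had an abp1Δ and 19 a wild-type interval. A distant one was held by 4 of the 19 (21.1%), beside 17.2% of protein-coding genes with a wild-type interval. The snoRNA gene sno16 had none in abp1Δ and 81 bp in wild type. The snoRNA genes snR51b and SPNCRNA.723, which overlap, shared 20 distant bp. A region on the long non-coding RNA gene SPNCRNA.3598 held 229 bp and reached a score of 258. An unbroken interval of 191 bp with a score of 264 lay 958 bp upstream of the phosphate transporter gene pho841, where no gene is annotated. Of the 7133 long non-coding RNA genes 45 met a distant interval (0.631%), among them the 4 that overlap the SPBPB10D8 genes. In the same list 239 met an abp1Δ interval and 248 a wild-type one. The 45 are 18.1% of these 248, a share close to the 17.2% of protein-coding genes.

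Base composition and gene size were described because the rule did not use them directly. A longer gene has more room to hold a distant interval, so gene length is not independent of the choice. The distant intervals had a GC content of 39.6% and the other wild-type intervals 42.8%. The bases in the SPBPB10D8 copies had 34.8%, and the distant intervals without these copies had 41.1%. The 63 genes had a median length of 1868 bp, the 367 genes with a wild-type interval 1457 bp and all protein-coding genes 1773 bp. They lay on the minus strand in 38 cases and on the plus strand in 25. The 38 include the identical SPBPB10D8 copies, and the share over all genes was not counted, so nothing is read from this. Within 100 kb of an end of chromosome I or II lay 5 of the 63, beside 122 of all 5113 genes (2.39%), and 3 of the 5 are SPBPB10D8 copies.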

How the data were processed

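ChIP-seq lists of intervals, used here as deposited, belong to 2 of the 4 fission yeast samples. Per the submitters' processing notes, Bowtie 0.12.5 was used. How intervals were called, whether inputs were used, how lists were scaled and how multiply aligning reads were handled is not given in the sources used here, nor is the genome build. In the deposited files there are a chromosome, a start, an end and a score per interval, the authors' own value, which was used only within 1 list. Depth per sample is unknown.

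Lists were read as half-open intervals. Moved by 1000 to 10000 bp, at most 75.5% of distant bases lay in protein-coding genes, against 87.4% as deposited. Intervals of equal score and width in repeated sequence matched the ASM294v3 genome at an offset of 0 in 174 of 174 pairs on the same strand and of 1 bp in 21 of 22 on opposite strands, so edges are good to about 1 base and RefSeq annotation of ASM294v3 was used. Gene ends are the annotated ones.

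A gap is the number of bases between interval edges. A gene holds an interval by an overlap of at least 1 bp. For position, an interval belongs to the gene at its midpoint and, where genes overlap, to the one with the most wild-type covered bp. Repeats were counted as 50-mers on both strands. Interval functions were tested on simulated data. The work used Python 3.11.15, pandas 2.3.3, numpy 2.4.6 and scipy 1.17.1. Genes named are the 20 with the most distant bp, those at the 10 highest regions and up to 3 per list, and others were named after their values were seen. A gene that the rule would name is not reported here. The intervals and gene lists were chosen with earlier results of these data known. Alternatives were other gaps, score limits, merging distances, gene sets and ways of counting.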

Additional observations from a re-analysis of the deposited data

How the results depend on the processing

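The set was sensitive to the gap and to the score, and less so to other choices. With any gap above 0 bp it held 1403 intervals, 19239 bp, 405 regions and 224 genes, and with a gap above 100 bp 182 regions and 107 genes, while 48 and 47 genes had no abp1Δ interval in these settings. With only wild-type scores of 250 or more, 43 intervals, 7403 bp, 26 regions, 19 genes and 15 genes without abp1Δ coverage were left. Of 33 named genes followed through these settings, 15 kept no distant base at that score limit, sul1 and sir1 among them. With only abp1Δ scores of 250 or more as neighbours there were 1054 intervals with 26153 bp. Gaps above 500 and 1000 bp left 474 and 419 intervals and 44 and 41 genes without abp1Δ coverage. With all annotated genes, 28.1% of intervals lay in the first part of a gene and 6.04% outside. With bases counted, 27% lay in the first part, 43.6% in the middle, 16.4% in the last and 13% outside. With any gap above 0 bp, 25.9%, 29.8% and 28.1% of intervals lay in the first, middle and last part. Outside lay 13.9% with a gap above 500 bp, and with a gap above 1000 bp 12.9% lay outside and 42.7% in the middle. Alternatives chosen after seeing the data were lists of equal length, with 489 distant intervals, and a minimum of 20 distant bp per gene, with 44 genes. The cause of each shift other than the changed limit was not tested. No paired analysis was possible because each genotype has 1 interval list. Unknown depth and an unstated score unit limit every absence from the abp1Δ list.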

Other observations

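Several genes that act when daughter cells part after septation held distant intervals. They were put together after their values had been seen, so they are no independent evidence. In abp1Δ mid2, eng1, agn1 and cfh4 had no covered base. In wild type mid2 had 531 covered bp, eng1 197, agn1 21 and cfh4 7. The gene adg2 had 621 bp in the abp1Δ list and 1773 in the wild-type list, and adg1, adg3 and rgf3 had none in either list. The scores of mid2 reached 266 and those of eng1 248. Those of agn1 reached 210 and those of cfh4 206, near the lowest score of 200. The share of dividing cells in each culture is not given in the sources used here.

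An isolated distant interval in the last part of the F-box gene pof2 was 3 bp wide and had a score of 316, the only distant region of under 20 bp with a score of 300 or more.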
